A study of Mus musculus with 1666 samples.

Results

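The genes described here are 10 homeobox transcription factor genes, Dlx1, Dlx2, Dlx3, Dlx5, Dlx6, Irx1, Irx2, Irx3, Irx4 and Irx5, chosen by name among the 49662 symbols measured in single cells of mouse whisker follicles. The study used a transgenic mouse line that carries the photoconvertible protein Kikume Green-Red in the nucleus, sampled at E11.5, the first of 7 stages, and on up to E17.0. From E12.0 on, cells were sorted from single whisker follicles turned red by light and were ITGA6+ and CD31-. The E11.5 cells were sorted as ITGA6+ and CD31- without the red gate, so E11.5 also differs from the later stages by its gate. RamDA-seq, which reads total RNA along whole transcripts, gave values for 1614 cells on 18 library plates. The study traced where hair follicle stem cells come from.

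Dlx proteins are distal-less homeobox factors whose genes lie in closely spaced pairs that share enhancers. In the face, Dlx1 and Dlx2 are known from the neural crest mesenchyme of the upper and lower jaw, Dlx5 and Dlx6 from that of the lower jaw, and Dlx3 from the surface ectoderm, the hair matrix and the inner root sheath. Irx proteins are Iroquois factors of the TALE homeobox class. Their genes form the IrxA cluster (Irx1, Irx2 and Irx4) and the IrxB cluster (Irx3, Irx5 and Irx6) and are known for patterning heart, limb and neural tissue.

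On GRCm38, Dlx1 and Dlx2 lie 9.43 kb apart on chromosome 2 and Dlx5 and Dlx6 lie 9.24 kb apart on chromosome 6. Dlx3 is on chromosome 11. Irx1, Irx2 and Irx4 lie on chromosome 13, with 665 kb between Irx1 and Irx2 and 626 kb between Irx2 and Irx4. Irx3 and Irx5 are 556 kb apart on chromosome 8. RefSeq promoter windows of GRCm38.p6 were matched for 5 of the 10 genes. The 250 bases before the start of Irx2 and Irx4 are shown because Irx2 was the most abundant of the 10 genes in epithelium from E12.0 on, Irx4 was present there at every stage, and the levels of these neighbours varied together from cell to cell. Capitals mark CCAAT and GGGCGG, searched on both strands with no overlap between matches.
Irx2, chr13:72628570-72628819, plus strand: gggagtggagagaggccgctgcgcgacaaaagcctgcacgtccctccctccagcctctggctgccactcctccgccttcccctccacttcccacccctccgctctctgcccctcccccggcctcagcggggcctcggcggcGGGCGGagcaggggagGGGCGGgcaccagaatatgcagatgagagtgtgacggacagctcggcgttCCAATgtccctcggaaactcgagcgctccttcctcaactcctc
Irx4, chr13:73260247-73260496, plus strand: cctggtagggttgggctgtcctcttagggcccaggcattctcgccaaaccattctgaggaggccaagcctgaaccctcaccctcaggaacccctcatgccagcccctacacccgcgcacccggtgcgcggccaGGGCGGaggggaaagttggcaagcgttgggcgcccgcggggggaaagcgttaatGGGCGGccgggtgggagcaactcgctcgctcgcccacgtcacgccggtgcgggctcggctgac
The Irx2 window holds 19 CpG and the Irx4 window 22, against a median of 6 over 32851 windows of this length. GGGCGG occurs in 32.7% and CCAAT in 33.8% of all windows. The homeodomain core TAATTA occurs in 4.84% of them and is not in the windows of Irx2 or Irx4. The GENCODE start of Irx4 lies within the Irx4 window, near its end.

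Epithelial cells are those with Krt5, a basal keratin, at 10 TPM or more, Trp63, the p63 regulator of epidermis, at 10 TPM or more, and Col3a1 under 50 TPM. TPM is a transcript abundance scaled to a fixed total per cell and for gene length, so genes can be compared. By this rule 1035 of the 1614 cells (64.1%) were epithelial, with a median of 57.7 TPM for Cdh1, the epithelial cadherin, which the rule did not use. Fibroblast-like cells have Col3a1 at 50 TPM or more, Pdgfra at 10 TPM or more and Trp63 under 10 TPM, and were 417 cells (25.8%). Their median was 959 TPM for Col1a1, a fibrillar collagen outside the rule, and 0 TPM for Cdh1, although the gate was meant for basal epidermal cells. The other 162 cells fell in neither class. Epithelial cells numbered 53 to 267 per stage. Fibroblast-like cells numbered 0 at E12.0, 2 at E13.5 and 14 to 210 at the other stages, which limits comparisons of the classes to 5 stages. E15.0 plate 1 stood apart, with 10 epithelial cells against 53 to 58 on the other plates of that stage, and 73 fibroblast-like cells. The E13.0 plates were also mostly fibroblast-like, with 14 to 23 epithelial and 63 to 74 fibroblast-like cells each. Cells had a median of 16601 to 19468.5 genes at 1 TPM or more by stage, and their read depth is unknown. No embryo is labelled, so a stage is 1 sample. Plates 2 to 4 of E15.0 carry the same identifiers as plates 1 to 3 of E17.0, and plate 1 of E13.0 the same as plate 1 of E15.0. They were counted separately by stage, and whether they were prepared together is not stated. Ranges over plates show the spread between library plates, which may be technical.

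Irx2 was the most abundant of the 10 genes in epithelial cells from E12.0 on. Its mean level was 11.7 TPM on the single E11.5 plate, 41.8 to 51.9 TPM on the E12.0 plates and 212 to 279 TPM on the E13.0 plates. It then lay between 234 and 252 TPM at E13.5, 213 and 230 TPM at E14.0, 162 and 232 TPM at E15.0, and 150 and 190.9 TPM at E17.0. The plates of E11.5, E12.0 and E13.0 thus did not overlap, with a 4.04-fold difference between the first pair of stages and a 5.16-fold difference between the next. The share of epithelial cells with Irx2 at 1 TPM or more was 35.2% at E11.5 (exact 95% interval 22.7 to 49.4%), 95.5% at E12.0 (92.3 to 97.7%) and 98.9 to 100% from E13.0 on. These intervals cover the sampling of cells only.

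Irx1, the neighbour of Irx2, was nearly absent at the first stages. Its mean was 0.456 TPM at E11.5, 0.876 TPM at E12.0, 19.96 TPM at E13.0, 28.2 TPM at E13.5, 45.3 TPM at E14.0, 48.5 TPM at E15.0 and 59.2 TPM at E17.0. Between E12.0 and E13.0 the means differed 22.8-fold, and the highest E12.0 plate (1.20 TPM) lay below the lowest E13.0 plate (11.4 TPM). Cells with Irx1 at 1 TPM or more made up 16.5% of epithelial cells at E12.0, 83.02% at E13.0 and 96.7% at E17.0. Irx4 followed another course, since it was present in 94.3 to 98.9% of epithelial cells at every stage. Its mean level was 32.9 TPM at E11.5, 19.9 TPM at E12.0, 43.4 TPM at E13.0 and 52.02 to 66.1 TPM afterwards. These shares hold for cells that pass the epithelial rule. Outside both classes, 32 cells had at least 3 basal epidermis markers at 10 TPM or more. Irx4 reached 1 TPM in 46.9% of them (median 0.381 TPM) and Irx2 in 78.1% (median 16.8 TPM). All 3 IrxA genes were at 1 TPM or more in 5.56% of epithelial cells at E11.5 and in 92.2% at E17.0.

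The IrxB genes were lowest at the last stage. Irx3 averaged 14.1 TPM at E11.5, 6.96 TPM at E12.0, 3.53 TPM at E13.0, 7.32 TPM at E13.5, 4.70 TPM at E14.0, 2.65 TPM at E15.0 and 0.491 TPM at E17.0. Plates of neighbouring stages did not overlap at any of these 6 steps, and the step from E13.0 to E13.5 went up. Irx3 was at 1 TPM or more in 100% of 54 epithelial cells at E11.5 and in 14.4% of 180 at E17.0 (9.66 to 20.4%). Irx5, its cluster neighbour, averaged 18.7 TPM at E11.5, 11.6 TPM at E12.0, 6.25 TPM at E13.0, 19.98 TPM at E13.5, 12.3 TPM at E14.0, 10.3 TPM at E15.0 and 2.03 TPM at E17.0. Both genes thus stood lower at E13.0 than at E12.0, higher at E13.5 and were lowest at E17.0. Over these stages the sum of 5 suprabasal and periderm markers in epithelial cells was 6.10 to 6.18 TPM up to E12.0, 115 TPM at E13.0, 655 TPM at E13.5, 829 TPM at E14.0, 393 TPM at E15.0 and 203 TPM at E17.0. The part of these cells in the Irx3 and Irx5 levels was not tested. The lower E13.0 levels come from plates that were mostly fibroblast-like, as was E15.0 plate 1 (73 of 90 cells). On that plate Irx3 averaged 1.14 TPM, against 2.70 to 3.48 TPM on the other E15.0 plates. Irx5 averaged 6.87 TPM there, against 9.81 to 12.5 TPM. The part of plate make-up in the E13.0 levels was not tested.

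**Figure D1:**
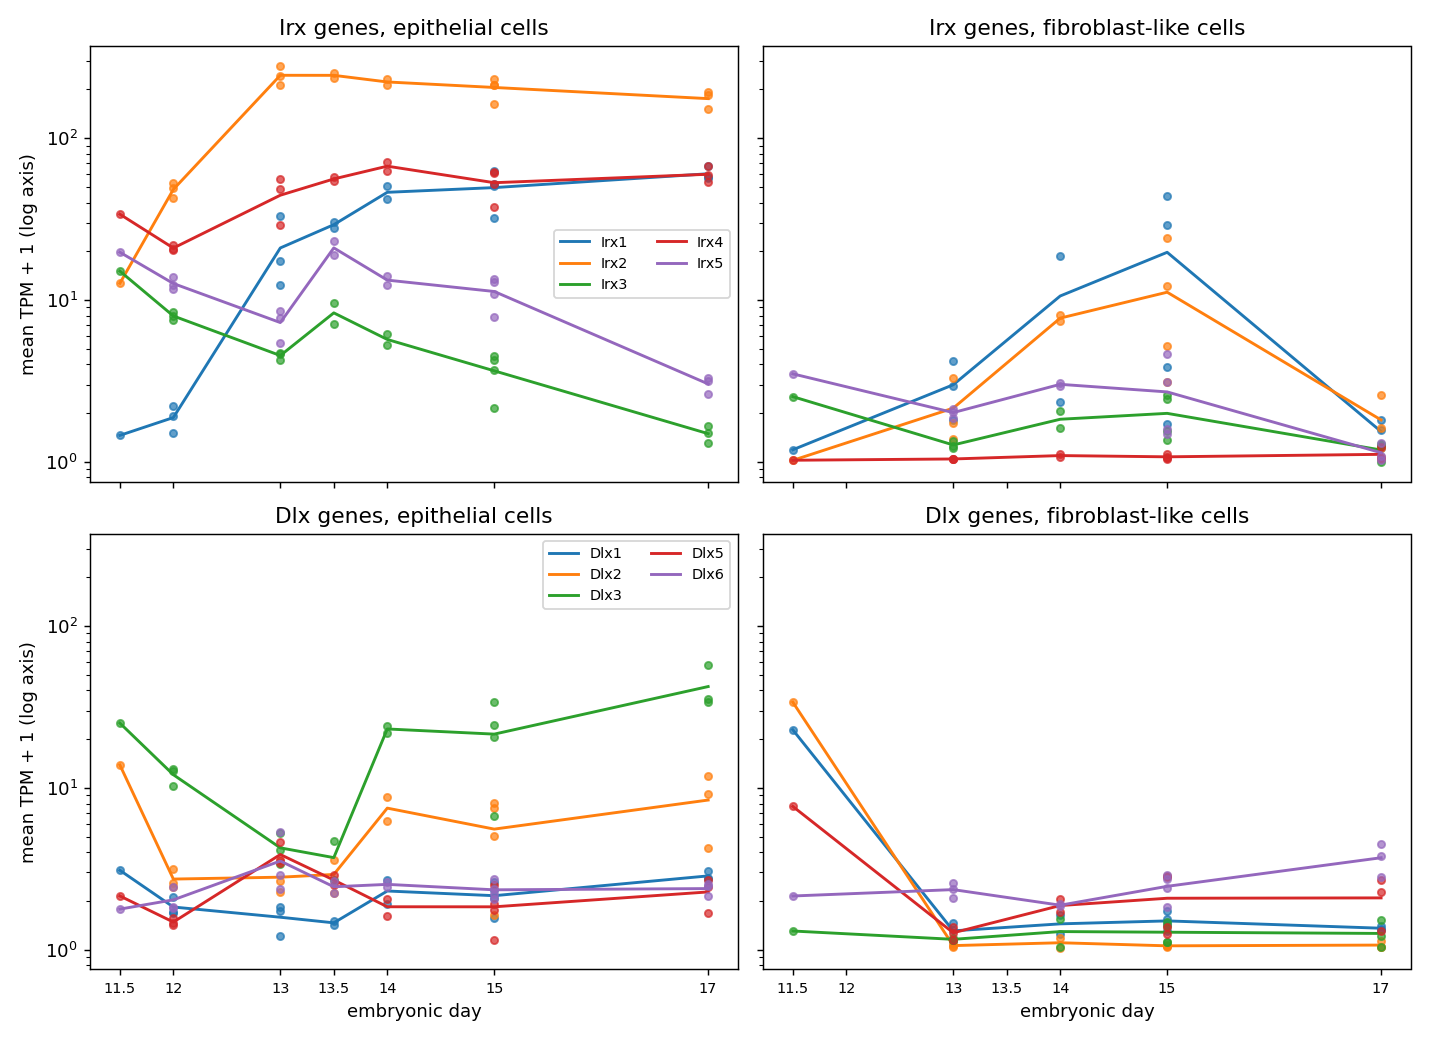
Mean TPM + 1 (log axis) of the Irx genes (top) and Dlx genes (bottom) by embryonic day in epithelial (left) and fibroblast-like cells (right); points are library plates and lines join stage means. Irx2 is the highest line in epithelial cells from E12.0 on, Irx1 passes from 0.876 TPM at E12.0 to 19.96 TPM at E13.0, and Irx3 is lowest at E17.0 (0.491 TPM).

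Dlx3 was high early, low at E13.0 and E13.5, and high again later. Its epithelial mean was 24.1 TPM at E11.5 and 11.05 TPM at E12.0, 3.26 TPM at E13.0 and 2.70 TPM at E13.5, then 22.1 TPM at E14.0, 20.5 TPM at E15.0 and 41.2 TPM at E17.0. The E14.0 plates (20.95 and 23.3 TPM) both lay above the E13.5 plates (1.70 and 3.71 TPM), an 8.18-fold difference of the means. The early and late maxima differed in how cells shared them. At E11.5 all 54 cells had Dlx3 at 1 TPM or more and the median cell had 18.5 TPM, whereas at E17.0 the median cell had 6.36 TPM and the highest 380 TPM. On E15.0 plate 1, with its 10 epithelial cells, the mean was 5.68 TPM, against 19.6 to 33.1 TPM on the other plates.

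Dlx2 had a similar course at a lower level. It averaged 12.8 TPM at E11.5, 1.73 TPM at E12.0, 1.80 TPM at E13.0, 1.91 TPM at E13.5, 6.49 TPM at E14.0, 4.56 TPM at E15.0 and 7.40 TPM at E17.0, and its median cell was at 0 TPM at each stage from E12.0 on. Dlx1 stayed between 0.464 and 2.09 TPM and Dlx5 between 0.480 and 2.87 TPM, the latter with its highest mean at E13.0. Dlx6 lay between 0.780 and 2.53 TPM. Dlx6 was also found in other cells, with 0.882 to 2.70 TPM in fibroblast-like cells of stages with at least 10 of them and 1.39 TPM in the 46 endothelial-marked cells outside both classes. The strand of the reads is not stated, and annotated antisense genes overlap Dlx1, Dlx6 and Irx3. If reads were counted without strand, those of these genes and of Dlx1as, Dlx6os1 and Irx3os would be mixed.

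The order of the levels changed over the stages. On the E11.5 plate it ran from Irx4 (32.9 TPM) through Dlx3 (24.1 TPM), Irx5 (18.7 TPM), Irx3 (14.1 TPM), Dlx2 (12.8 TPM) and Irx2 (11.7 TPM), and the other 4 genes were at 2.09 TPM or less. At E17.0 Irx2 stood above all plates of the next gene, Irx1. Irx1, Irx4 and Dlx3 each overlapped with their neighbour in the order, and Dlx2 (3.25 to 10.8 TPM) lay below the Dlx3 plates and above those of the remaining 5 genes, of which Irx3 was lowest.

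**Figure D2:**
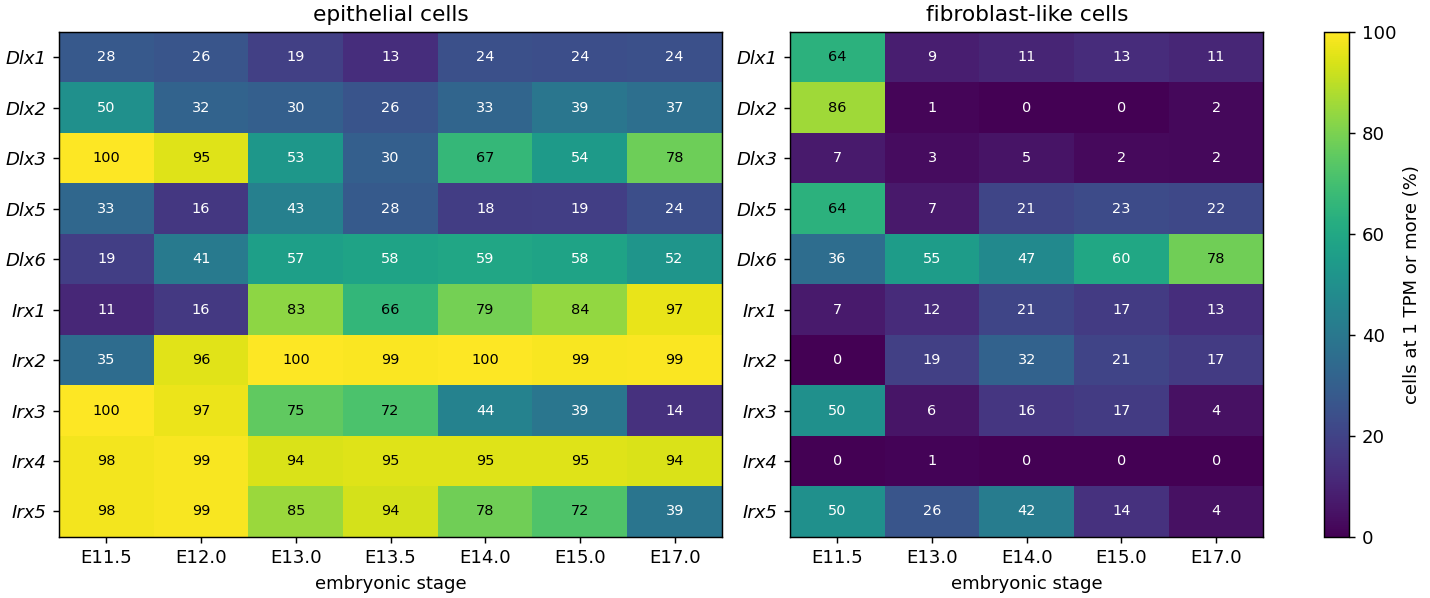
Share of epithelial (left) and fibroblast-like cells (right) with each gene at 1 TPM or more, in percent, by stage; stages with fewer than 10 fibroblast-like cells are left out. Irx4 is above 94% in epithelial cells at every stage and at most 0.952% in fibroblast-like cells, while Irx3 goes from 100% to 14.4% in epithelial cells.

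The change with embryonic day in epithelial cells was tested for each gene with limma over the 7 stage means, on log2(TPM + 1), with Benjamini-Hochberg adjustment over 23671 genes. Of the 10 genes, Irx3 fell, by 0.53 per day (SE 0.084, adjusted p = 0.0312). Over all genes tested, 0.663% fell and 1.25% rose, and 4425 genes had an unadjusted p under 0.05. The other 9 genes did not pass. Irx1 had the steepest positive slope (1.02 per day, SE 0.24, adjusted p = 0.0862), followed by Irx2 (0.55, adjusted p = 0.285) and Irx4 (0.22, adjusted p = 0.229). Irx5 had a slope of -0.38 (adjusted p = 0.176) and Dlx3 one of 0.30 (adjusted p = 0.530), and the slopes of Dlx1, Dlx2, Dlx5 and Dlx6 lay between 0.0078 and 0.088. The Irx3 call ended when E11.5, E12.0, E14.0, E15.0 or E17.0 was left out, with adjusted p = 0.114, 0.0544, 0.0550, 0.1002 and 0.134. A straight line also describes the up-and-down courses of Dlx3 and Dlx2 poorly. Irx1 passed without E17.0, where its slope was 1.66 and its adjusted p 0.0443.

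Epithelial and fibroblast-like cells were compared within the 5 stages that hold at least 10 cells of each, E11.5, E13.0, E14.0, E15.0 and E17.0, with limma on the per-stage differences. Irx4 was 5.56 log2 units higher in epithelial cells (SE 0.15, adjusted p = 1.73e-05). Its mean in fibroblast-like cells was at most 0.111 TPM at any stage, and 2 of 210 cells at E13.0 reached 1 TPM. Irx2 was higher by 5.22 (SE 0.51, adjusted p = 0.00163) and Dlx3, the ectodermal Dlx gene, by 3.89 (SE 0.43, adjusted p = 0.00248). Irx5 was higher by 1.99 (SE 0.18, adjusted p = 0.00111) and Irx3 by 1.45 (SE 0.32, adjusted p = 0.0253). Each of these 5 genes was higher in epithelial cells at 5 of 5 stages. Of the 24166 genes tested, 7.76% were higher and 13% lower in epithelial cells, 1875 against 3143 genes. With median-of-ratios scaling the split was 2530 against 2323, and the same 5 members passed.

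The Irx3 difference missed the threshold without E13.0, E14.0 or E15.0 (adjusted p = 0.0805, 0.0873 and 0.0589). Its stage differences were 2.58 at E11.5 and 0.34 at E17.0. Irx1 was 2.37 higher in epithelial cells (SE 0.67) and higher at 5 of 5 stages, with an adjusted p of 0.0511. Its differences ranged from 0.30 at E11.5 to 5.29 at E17.0. Dlx2 had a difference of 1.65 (SE 0.63, adjusted p = 0.111), which was -1.29 at E11.5 and between 1.405 and 2.98 at the other stages. Without E11.5, Dlx2 was 2.39 higher (adjusted p = 0.00396) and Irx1 2.89 higher (adjusted p = 0.0266). Dlx1, Dlx5 and Dlx6 had mean differences of -0.07, -0.06 and 0.01 (adjusted p = 0.947, 0.937 and 0.982). Dlx1 was -2.88 at E11.5 and between 0.28 and 1.07 at the other 4 stages, and Dlx5 was -1.84 at E11.5.

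**Figure D3:**
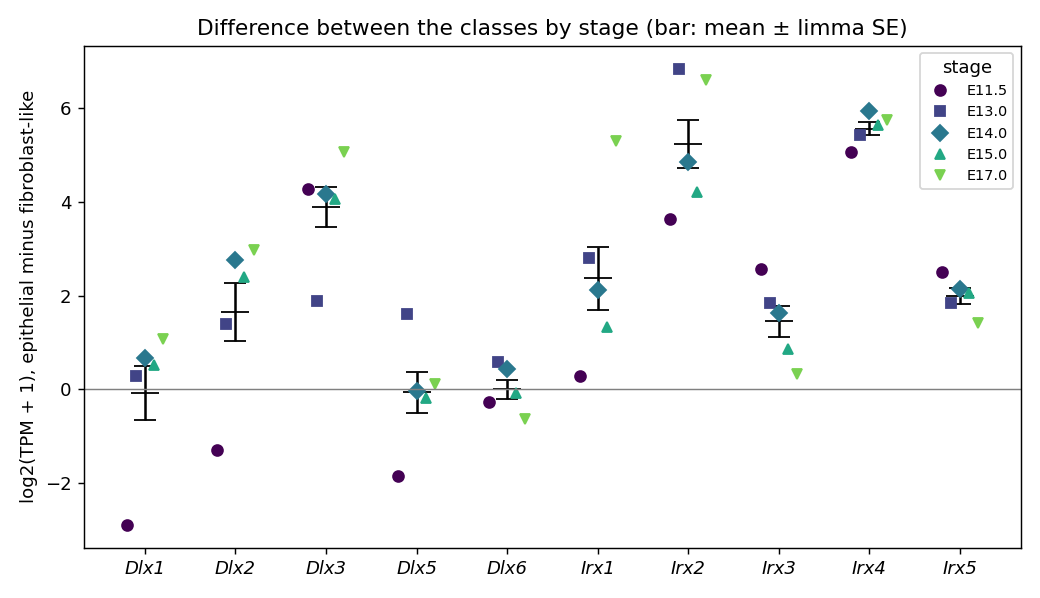
Difference in log2(stage mean TPM + 1) between epithelial and fibroblast-like cells for each gene; symbols are the 5 stages, and black bars are the mean and its limma SE. Irx4 lies between 5.05 and 5.94 at all 5 stages, while Dlx1, Dlx2 and Dlx5 lie below 0 at E11.5.

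At E11.5 Dlx1, Dlx2 and Dlx5 had higher mean levels in the fibroblast-like cells than in the epithelial cells. In the 14 fibroblast-like cells Dlx1 averaged 21.8 TPM, Dlx2 32.8 TPM and Dlx5 6.68 TPM, against 2.09, 12.8 and 1.15 TPM in epithelial cells of that stage. Dlx6 averaged 1.15 TPM, with 5 of the 14 cells at 1 TPM or more, against 0.780 TPM in epithelial cells. Cells differed widely, with Dlx1 at 10 TPM or more in 6 and Dlx2 in 9 of the 14. The 6 Dlx1 cells were all Dlx2 cells. At the later stages with at least 10 such cells, Dlx2 was at most 0.103 TPM and Dlx1 at most 0.505 TPM in fibroblast-like cells, and 1.43% of the 210 cells at E13.0 had Dlx2 at 1 TPM or more. Lhx8, a LIM homeobox gene of oral jaw mesenchyme, had a mean of 196.1 TPM in the E11.5 fibroblast-like cells and 0.0261 TPM at E13.0. Msx1, a homeobox gene of the facial prominences, averaged 359 TPM and then 0.140 TPM. Not all facial patterning genes followed, since Alx4 averaged 33.1 and then 39.98 TPM, Gsc 0.185 and then 2.02 TPM, and Barx1 1.83 and then 1.61 TPM. These values are described and were not tested. Hand2, which marks the lower jaw, averaged 0.0229 TPM at E11.5, with 0 of 14 cells at 1 TPM, which allows a share of up to 21.4%. The 5 nerve and Schwann cell markers summed to 44.9 TPM in these cells against 2.71 to 7.97 TPM later. Of that sum Tubb3 gave 41.6 TPM, and Sox10, the defining crest glia factor, was at 0 in all 14. The part of the missing red gate at E11.5 in these values cannot be told apart from the stage.

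Irx1 and Irx2 also appeared in a minority of later fibroblast-like cells. On the E15.0 plates Irx1 averaged 2.83, 28.1, 43.1 and 0.722 TPM and Irx2 2.10, 11.2, 23.1 and 4.20 TPM, while the median cell had 0 TPM of each. At that stage 13 of 126 fibroblast-like cells had Irx1 at 10 TPM or more, 6 of them on plate 2, 4 on plate 3 and 3 on plate 1. All 13 also had Irx2 at 10 TPM or more, against 1 of the other 113 cells. Irx4 was at 0 TPM in all 13, unlike in epithelial cells. The summed level of Krt5, Krt14, Trp63, Epcam, Cdh1 and Perp had a median of 1.49 TPM in these 13 cells and 1.19 TPM in the others. These cells were picked by their Irx1 level, so the values are a description. The overlap was less complete at other stages. At E13.0, 3 of 8 cells picked in this way had Irx2 at 10 TPM or more, against 0 of the other 202. At E14.0 it was 2 of 2, against 2 of the other 17. At E13.0, fibroblast-like cells with Sox2 at 10 TPM or more, a marker of the dermal condensate, had 0.442 TPM of Irx1 and 0.721 TPM of Irx2 (75 cells), against 2.75 and 1.29 TPM in the 135 without. Irx2 plate ranges overlapped (0.476 to 1.07 against 0.323 to 2.93 TPM). Irx2 was at 1 TPM or more in 18.7% and 19.3% of these groups.

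In late epithelium Dlx1, Dlx2 and Dlx3 had higher levels, and most of the Irx genes lower levels, in cells with Shh. At E17.0 the 32 epithelial cells with Shh, the hedgehog ligand of the hair matrix, at 10 TPM or more averaged 168 TPM of Dlx3 (plates 140 to 187 TPM), against 13.4 TPM in the 148 cells below (plates 6.63 to 19.1 TPM). These 32 cells, 17.8% of the epithelial cells, held 73.1% of the summed Dlx3 level. Dlx2 was 28.04 TPM against 2.77 TPM and Dlx1 7.69 TPM against 0.589 TPM, again without overlap between plates. The direction was the same at E14.0, with 194 against 7.88 TPM of Dlx3 in 11 and 133 cells, and at E15.0, with 185 against 9.34 TPM in 15 and 163 cells. Dlx5 was 6.05 against 0.542 TPM at E15.0, where plates did not overlap, and 2.43 against 1.03 TPM at E17.0, where they did (0.578 to 3.79 against 0.715 to 1.19 TPM). Dlx6 went the other way, with 1.06 against 1.57 TPM at E14.0, 0.683 against 1.49 TPM at E15.0 and 0.584 against 1.56 TPM at E17.0.

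All 5 Irx genes had lower mean levels in the Shh cells of these stages, although Irx1, Irx2 and Irx4 were still at 1 TPM or more in 30, 32 and 30 of the 32 Shh cells at E17.0. Irx2 was 57.6 TPM against 200.3 TPM at E17.0, 81.4 against 228 TPM at E15.0 and 98.3 against 232 TPM at E14.0. Irx1 was 20.2 TPM against 67.9 TPM at E17.0. Irx3 was 0.119 against 5.08 TPM at E14.0 and 0.224 against 3.28 TPM at E15.0. At E17.0 Irx3 was near the floor in both groups, at 0.0754 against 0.588 TPM with a median of 0 TPM in each. Irx5 was at 1 TPM or more in 0 of the 32 Shh cells at E17.0, which allows a share of up to 9.38%, and its mean was 0.482 against 13.2 TPM at E14.0 and 0.232 against 12.1 TPM at E15.0. Irx4 was 32.5 against 68.8 TPM at E14.0, without overlap between plates, and 34.2 against 58.2 TPM at E15.0, with overlap. It showed the smallest contrast of the Irx genes at E17.0, with 52.8 against 60.1 TPM and plate ranges that overlap. The Shh cells had a median of 16043 genes at 1 TPM or more at E17.0, against 16610.5 in the rest. Plate ranges cover plates with at least 5 cells of a group. Shh chose these cells and no test was run between them, since cells of a stage share 1 sample.

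A like pattern held for cells with inner root sheath keratins (Krt25, Krt27, Krt28 and Krt71) summing to 10 TPM or more. At E17.0 Dlx3 averaged 121 TPM in 53 such cells and 7.65 TPM in the other 127, and Irx2 87.2 TPM against 212 TPM. These are largely the same cells, since all 32 Shh cells at E17.0 are among the 53. At E14.0 and E15.0, the 48 cells with Krt10, a keratin of differentiating layers, at 10 TPM or more had 7.21 TPM of Irx3 against 3.18 TPM in the other 274. Plate ranges overlapped (2.42 to 9.57 against 1.14 to 3.91 TPM). At E13.0 and E13.5, the 29 cells with Krt79, a keratin of the follicle opening, at 10 TPM or more had 10.5 TPM of Irx3 against 5.73 TPM in the other 183, while Irx5 was 14.5 against 16.9 TPM, with overlapping plates.

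At E12.0 the levels of Dlx3 did not separate cells with and without Shh. The 64 cells with Shh at 10 TPM or more had 9.60 TPM of Dlx3, the 76 cells with Sox9 but not Shh at that level had 10.7 TPM, and the 127 cells with neither had 11.98 TPM, with overlapping plates. Dlx2 already differed, at 3.51 TPM (plates 3.38 to 3.61 TPM), 1.64 TPM (0.930 to 2.18 TPM) and 0.877 TPM (0.291 to 1.26 TPM). Irx3 and Irx5, nearly absent from late Shh cells, were highest in the Shh cells of E12.0. Irx3 was 10.1 TPM (plates 9.56 to 10.4 TPM) against 6.32 and 5.76 TPM, and Irx5 16.8 TPM against 10.7 and 9.57 TPM. Irx4 had the reverse order, with 13.4, 16.7 and 25.1 TPM.

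**Figure D4:**
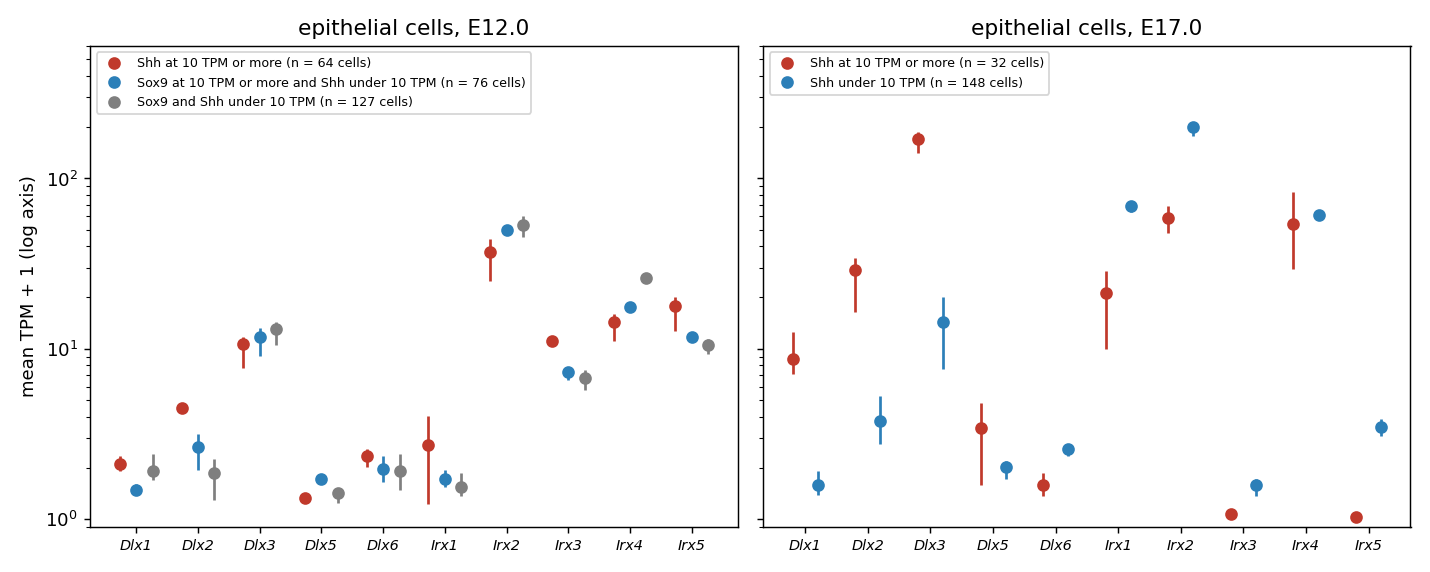
Mean TPM + 1 (log axis) of each gene in epithelial cells at E12.0 (left) and E17.0 (right), grouped by Shh and, at E12.0, Sox9; vertical lines run from the lowest to the highest plate mean. Dlx3 is alike in the 3 groups at E12.0 (9.60 to 11.98 TPM) and is 168 TPM in Shh cells against 13.4 TPM in the rest at E17.0, where Irx5 is lower in Shh cells.

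Variation from cell to cell within plates was summarised by partial Spearman correlation, with the count of genes at 1 TPM or more in each cell held constant, over 995 epithelial cells on 15 plates. Cells of a plate share library preparation, so the values are descriptions. Neighbours in the Irx clusters varied together. The mean was 0.59 for Irx3 and Irx5 (0.20 to 0.80 over plates), 0.50 for Irx1 and Irx2 (-0.02 to 0.71), 0.45 for Irx2 and Irx4 (-0.03 to 0.70) and 0.33 for Irx1 and Irx4 (-0.21 to 0.72). Between the clusters the mean was negative, from -0.23 for Irx1 with Irx3 (-0.59 to 0.12) to -0.07 for Irx2 with Irx5 (-0.43 to 0.40). Each pair between the clusters changed sign over plates. Dlx2 and Dlx3, on different chromosomes, reached 0.33 (-0.16 to 0.72) and the neighbours Dlx1 and Dlx2 0.26 (-0.07 to 0.63). The neighbours Dlx5 and Dlx6 had 0.01 (-0.20 to 0.35). Dlx3 and Irx5 had -0.23 (-0.69 to 0.14). At E11.5, 42 of 54 epithelial cells had Dlx3 at 10 TPM or more, 44 had Irx5 and 33 had both. At E17.0, 76 of 180 cells had Dlx3, 8 had Irx5 and 2 had both at that level. The counts of cells with both depend on the single-gene counts, and a departure from these was not tested. In fibroblast-like cells only Dlx6 and Irx5 were frequent enough for this measure, over 303 cells on 5 plates.

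**Figure D5:**
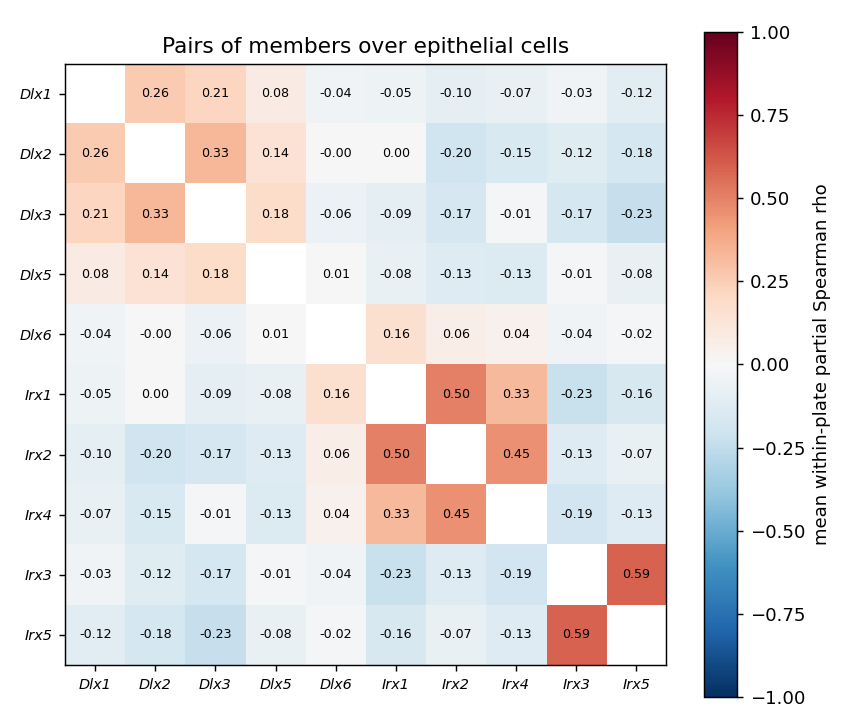
Mean within-plate partial Spearman correlation between each pair of genes over 995 epithelial cells on 15 plates, with red above 0 and blue below. The IrxA block (Irx1, Irx2, Irx4), the Irx3 and Irx5 pair (0.59) and the Dlx1, Dlx2 and Dlx3 block stand out from the pairs between them.

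Among other protein-coding genes, with some symbol classes passed over, those most like Dlx3 by this measure were Msx2 (0.37), Cux1 (0.34) and Ror2 (0.33). Msx2 is a homeobox gene of the hair matrix. Dlx2 had Cux1 (0.46), Msx2 (0.41) and Nrp2 (0.36), and Dlx1 had Cux1 (0.20), Msx1 (0.18) and Ror2 (0.18). Irx1 was most like Lhx2 (0.50), a LIM homeobox gene of hair follicle progenitors, Tbx1 (0.50) and Pthlh (0.48). Irx2 had Barx2 (0.44), Pthlh (0.41) and Lmcd1 (0.40), and Irx4 had Fbln2 (0.48), Tns3 (0.45) and Ccdc102a (0.42). Irx3 was most like Krtdap (0.37), a gene of differentiating keratinocytes, Myo10 (0.36) and Klf5 (0.33), and Irx5 like Krtdap (0.42), Wnt7b (0.40) and Slitrk6 (0.39). Dlx5 and Dlx6 had no gene above 0.25 among those listed by the same rule, with Ror2 (0.25), Lad1 (0.20) and Gars (0.19) for Dlx5 and Fgf9 (0.21), Lgr4 (0.20) and Barx2 (0.19) for Dlx6. In fibroblast-like cells Irx5 was most like Nfil3 (0.40), Lmcd1 (0.39) and Gas1 (0.38), and Dlx6 like Arid1a (0.23), Ttl (0.22) and Atxn7l3 (0.22). The plates differed widely, for example from -0.20 to 0.79 for Irx5 with Krtdap in epithelial cells.

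Irx6 and Dlx4, the remaining genes of both families, had low mean levels in epithelial cells. Irx6, the last IrxB gene, averaged at most 0.714 TPM in epithelial cells (E11.5), and Dlx4, next to Dlx3, at most 2.53 TPM (E17.0). Mkx, the related TALE gene of tendon, was 1.82 log2 units lower in epithelial than in fibroblast-like cells (SE 0.28, adjusted p = 0.00762) and was the only 1 of these 3 genes tested in that comparison. Of 5 RNAs antisense to or between the cluster genes, 3 were tested for a trend, and Irx3os fell by 0.42 per day (SE 0.066, adjusted p = 0.0298), to 0.0713 TPM at E17.0, with the limit on strand given above for Irx3. Among 11 hair regulators linked to Dlx3, 1 of 11 tested rose with day, Foxn1 (0.30 per day, adjusted p = 0.0395), a hair keratin regulator, and 0 fell. The median slope was 0.07, against -0.01 for all genes. In the class comparison 5 of 10 tested were higher in epithelial cells, among them Wnt10b, a Wnt ligand (4.13, adjusted p = 0.000764), Hoxc13, a hair keratin regulator (3.03, adjusted p = 0.00756), and Msx2 (1.90, adjusted p = 0.0215). The 2 that were lower were Lef1 (-2.34, adjusted p = 0.00196) and Bmp4 (-2.74, adjusted p = 0.00788).

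Of 16 facial prominence patterning genes, 12 were tested between the classes. Tfap2a and Tfap2b, the ectodermal AP-2 factors, were higher in epithelial cells (1.68 and 5.19, adjusted p = 0.0407 and 0.000750), and Alx4, Lhx6 and Gsc were lower. The median over the 12 was -1.58, against -0.10 over all genes and 1.82 over the 10 Dlx and Irx genes. Of 10 epidermal regulators, 7 were higher, among them Barx2 (4.68) and Grhl2 (4.50), 1 was lower, Klf4 (-1.09, adjusted p = 0.0180), and Tfap2c and Satb1 did not pass. With day, 0 of the 10 epidermal regulators and 0 of the 5 patterning genes tested passed with limma, at an unadjusted p under 0.05 for 4 and 1 of them.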

How the data were processed

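Cells were grouped by the stage in their labels. The authors' deposited table gives TPM per cell, summed over genes that share a symbol as the table's name states. The tools named in the submitters' processing notes are HISAT2 2.0.4, bcl2fastq 1.0 and Subread 1.5.0 (featureCounts), and the build is mm10; the annotation release and strand setting are not given in the sources used here. The labels list 1666 cells; 52 marked by the authors for low quality lack values here, so 1614 were used, of which 0 repeat another's values. TPM keeps no depth, and cells were not thinned.

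Cell TPM was averaged per plate (at least 5 cells of the class) and then over plates with equal weight. Limma 3.58.1 (lmFit and eBayes with trend, R 4.3.3) was run on log2(stage mean TPM + 1), a scale that understates changes of low genes, keeping genes that averaged 1 TPM or more, two-sided, at an adjusted p of 0.05, and was tested on simulated data. Each stage was 1 value, since no embryo is labelled. Shares have exact Clopper-Pearson intervals, and the limit for 0 is 3 cells of the total. Correlations used plates with at least 20 cells and genes at 1 TPM in at least 20% of cells, with Fisher z weighted by cells less 4. Named genes were the members, the fixed lists, and for each member the 3 genes with the highest correlation. Rescaling to protein-coding genes shifted the median of all genes by 1.23 to 1.32 (log2), by 0.03 between E17.0 and E11.5, so changes are relative to the TPM total. Alternatives were other pseudocounts, filters, scalings, class thresholds, cells with Xist under 1 TPM, plates and stages left out, and the rank of the stage. Positions are from GENCODE M21. Members and lists were chosen with earlier results of these data known. No doublet caller was run on these cells sorted 1 to a well.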

Additional observations from a re-analysis of the deposited data

How the results depend on the processing

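The class differences of Irx4, Irx2, Dlx3 and Irx5 kept direction and threshold in all 17, 17, 17 and 16 alternatives that gave them a value, with adjusted p (limma) up to 0.000340, 0.0100, 0.0156 and 0.00907. Irx3 lost its class call in 5 of 16 and its trend call in 8 of 19 alternatives, and its slope lay between -0.73 and -0.28. Irx1 passed in 7 of 17 class and 3 of 20 trend alternatives. The count of genes changing with day, 454, was 302 with a 10 TPM filter, 27 with no filter, 724 from means of log2 values (299 rising, 425 falling), 1408 on the rank of the stage, and 0 on plates with 1 form of description (4265 at an unadjusted p under 0.05). The plates with 1 form of description lack E11.5 and most of E12.0, so results of that setting also rest on fewer stages. Leaving out 1 stage gave 41 (without E15.0) to 383 (without E17.0), and the other 5 single omissions 100 to 269. The class count, 5018, was 2690 with a 10 TPM filter and 2165 (without E15.0) to 6997 (without E11.5) with 1 stage left out. The causes were not tested. With 1 stage left out, slopes ran from 0.027 (without E17.0) to 0.564 (without E11.5) for Dlx3 and 0.21 to 1.11 for Irx2. Over all alternatives that of Irx5 lay between -0.48 and -0.035, and it passed in 1 of 20 (adjusted p = 0.0467, means of log2 values).

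Signs turned for slopes that passed no test: Dlx2 (-0.017) and Dlx3 (-0.090) from means of log2 values, Dlx5 with a pseudocount of 5 TPM (-0.00081) and on ranks (-0.0071), and Dlx6 on plates with 1 form of description (-0.17). With 1 stage left out, slopes ran from -0.075 to 0.16 for Dlx1, -0.094 to 0.36 for Dlx2, -0.056 to 0.041 for Dlx5 and -0.012 to 0.11 for Dlx6. Class differences turned for Dlx1 with a pseudocount of 0.1 TPM (0.39) and rescaled to protein-coding genes (0.16), for Dlx5 in the same settings (0.078 and 0.030), without E15.0 plate 1 (0.0082) and in cells with Xist under 1 TPM (0.31), and for Dlx6 from means of log2 values (-0.020) and with stricter thresholds (-0.14). With 1 stage left out they ran from -0.48 to 0.38 for Dlx5 and -0.14 to 0.17 for Dlx6. No paired analysis was possible because replicate numbers only name cells in accession order and a stage is 1 sample; the class difference is already taken within stages. With no read depth, levels near 0 TPM have unknown precision, and 7 stages without embryo replicates limit every slope.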

Other observations

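Outside both classes, 51 of the 162 cells carried at least 3 nerve and Schwann cell markers at 10 TPM or more. They held the highest Dlx1 and Dlx2 levels of the cell groups outside the classes, with means of 20.9 TPM for Dlx1 (84.3% of cells at 1 TPM or more) and 34.9 TPM for Dlx2 (82.4%), while Dlx3, Irx1 and Irx4 averaged at most 0.0883 TPM. At E11.5 all 17 such cells had both Dlx1 and Dlx2 at 10 TPM or more, and at E17.0 8 and 7 of 14 did. The 24 fibroblast-marked cells outside the classes averaged 10.4 TPM of Dlx1 and 13.4 TPM of Dlx2. Each marker group was formed on its own, so a cell could count in more than 1 of them. The 11 cells with Merkel cell markers had 24.9 TPM of Irx2, 14.9 TPM of Dlx3, 9.06 TPM of Irx5 and 10.8 TPM of Irx1, with 1.09 TPM of Irx4. In the 46 endothelial-marked cells Dlx1, Dlx2, Dlx3, Dlx5, Irx1, Irx4 and Irx5 averaged at most 0.350 TPM and Irx3 1.20 TPM, and in the 14 melanocyte-marked cells Irx2 and Irx5 averaged 3.003 and 2.53 TPM.

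At E17.0 the 109 epithelial cells with both Sox9 and Nfatc1, transcription factors of hair follicle stem cells, at 10 TPM or more had 6.46 TPM of Dlx3 (plates 5.41 to 8.21 TPM) against 94.0 TPM in the other 71 (plates 73.9 to 129 TPM). They had 73.8 TPM of Irx1 against 37.4 TPM and 218 TPM of Irx2 against 108.5 TPM. This split lies outside the naming rule and was chosen after values were seen. It divides the same E17.0 cells as the Shh split, and the overlap of the groups was not counted.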
